A study of Mus musculus with 37 samples.

Results

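A pair of mouse pancreatic tumour cell clones that share the first part of their names, bulk_7160c2 and bulk_7160c5, was compared as grown tumours. The comparison takes 4 of the 37 bulk RNA libraries of the series, chosen by clone name. They are tumours no1 and no2 of bulk_7160c2, which the labels call T cell high, and tumours no1 and no2 of bulk_7160c5, which they call T cell intermediate. All 4 tumours grew for 3 weeks under the skin of C57BL/6 mice, an inbred strain with a full immune system, and received no treatment. The labels name no allele or driver mutation of the implanted cells, and no sex or age of the host. Each group is 1 clone, so p-values rest only on the spread among these 4 tumours and do not reach other clones. Nothing says whether the tumours of a clone came from separate mice. The sources used here do not give what the shared name stands for, and so how closely the clones are related. The series sets T cell low against T cell high tumours, and this pair holds the question of that label between 2 clones of the same name stem.

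Bulk tumour RNA mixes cancer cells with the fibroblasts, vessels, macrophages and lymphocytes around them. Pancreatic duct cancer is known for a dense collagen matrix laid down by fibroblasts and for few T cells. Its cells can also switch on genes of the stomach or intestine, organs that share an embryonic origin with the pancreas. In bulk samples, fewer cells of a type and less RNA per cell cannot be told apart.

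Levels are in CPM, a gene's count scaled to the total count of its library, and each pair of values runs from tumour no1 to tumour no2. The libraries held 101420034 and 32281301 counts in bulk_7160c2 and 102332697 and 40338805 counts in bulk_7160c5. The no1 libraries thus were the deeper ones, and they also held liver and heart RNA: 12 liver genes summed to 866.1 and 5.483 CPM in bulk_7160c2, against 832.8 and 3.148 CPM in bulk_7160c5. Tumour number was therefore fitted as a block, and counts without the block are given beside the results they alter. With the block, p-values rest on how far the clone difference disagreed between the no1 pair and the no2 pair. They do not measure the spread between tumours of a clone. Among 11817 genes at a mean of 5 CPM or more, 590 differed over 2-fold between the no1 tumours of the clones and 905 between the no2 tumours. The count was 1116 between the tumours of bulk_7160c2 and 177 between those of bulk_7160c5. Library bulk_7160c2_no1 lay closer to bulk_7160c5_no1 than to the other tumour of its own clone. Mki67, a proliferation marker, was 48.8 and 123 CPM in bulk_7160c2, against 121 and 124 CPM in bulk_7160c5, low in bulk_7160c2_no1 alone. The list of 22 cell cycle genes did not share this. Its median log2 difference, bulk_7160c2 minus bulk_7160c5, was 0.15 between the no1 tumours and 0.17 between the no2 tumours.

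Genes were tested with edgeR's two-sided quasi-likelihood test, and log2 differences are bulk_7160c2 minus bulk_7160c5. Of 18672 genes tested, 0 (0%) passed an adjusted p of 0.05, with 0.325 the lowest value reached. An unadjusted p under 0.05 was found for 2457 genes (13.2%), with 916 (4.91%) higher and 1541 (8.25%) lower in bulk_7160c2. Without the block, 0 genes passed and 1240 of 18672 had an unadjusted p under 0.05, with 380 higher and 860 lower in bulk_7160c2. With all 34 labelled tumours in a fit without the block, 0 of 20421 genes passed. At an unadjusted p under 0.05, 166 were higher and 170 lower. Counts of lists at these settings are to be read beside these. DESeq2 with the block called 394 of 16231 genes (2.43%), with 147 higher (0.906%) and 247 lower (1.52%) in bulk_7160c2. In what follows, higher and lower describe the values of these 4 tumours, and no difference passed the edgeR test.

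The markers of the label came first. Cd8a, a chain of the CD8 co-receptor on killer T cells (chr6:71373427-71379173, plus strand, build GRCm38 here and below), was 3.43 and 2.38 CPM in bulk_7160c2, against 4.41 and 3.00 CPM in bulk_7160c5 (log2 difference -0.32, SE 0.27, unadjusted p = 0.293, edgeR adjusted p = 0.611). The clones overlapped. Foxp3, the master regulator of regulatory T cells (chrX:7573644-7595245, plus strand), was 9.94 and 2.45 CPM in bulk_7160c2, against 13.6 and 8.23 CPM in bulk_7160c5 (log2 difference -1.02, SE 0.36, unadjusted p = 0.0376, edgeR adjusted p = 0.363). These values overlapped too, and with each tumour left out in turn the log2 difference ran from -2.10 to -0.09. Cd4, the co-receptor of helper and regulatory T cells, was 14.3 and 5.48 CPM in bulk_7160c2, against 17.6 and 14.7 CPM in bulk_7160c5 (log2 difference -0.81, SE 0.31, unadjusted p = 0.0497, edgeR adjusted p = 0.38). Both bulk_7160c2 tumours lay below both bulk_7160c5 tumours. Cd3e, a chain of the T cell receptor complex, was 4.69 and 2.17 CPM in bulk_7160c2, against 5.75 and 6.74 CPM in bulk_7160c5 (log2 difference -0.89, SE 0.39), again without overlap. For these 4 genes the clone called T cell high had the lower level in each pair of tumours, the reverse of the order that the labels give. The sources used here do not give how the labels were assigned.

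All 20 tested T cell genes had a negative log2 difference, with a median of -0.73, beside -0.02 over all genes tested, of which 52.2% were negative. In 15 of the 20, both bulk_7160c2 values lay below both bulk_7160c5 values, as in 23.3% of all genes. At an unadjusted p under 0.05 there were 4, against 8.25% of all genes, and DESeq2 called 0, against 1.52%. Cd27, a co-stimulatory receptor, had the smallest p of the list, at 1.38 and 0.589 CPM in bulk_7160c2, against 2.502 and 1.96 CPM in bulk_7160c5 (log2 difference -1.20, SE 0.38, unadjusted p = 0.0251, edgeR adjusted p = 0.341). The size of the difference rested on the no2 tumours, since the list median was -0.32 between the no1 tumours and -1.28 between the no2 tumours. It was -1.33, -0.17, -0.59 and -0.72 when bulk_7160c2_no1, bulk_7160c2_no2, bulk_7160c5_no1 and bulk_7160c5_no2 were left out in turn. The count at an unadjusted p under 0.05 was 0 without the block, where 860 of 18672 genes were lower at that p. It was 0 with all 34 labelled tumours in the fit, where 170 of 20421 genes were. Without the block, the unadjusted edgeR p was 0.296 for Foxp3 and 0.2003 for Cd4. Against the other 30 labelled tumours, all 4 libraries exceeded the median for 20 of 20 genes. The no1 libraries among those 30 held more liver and heart RNA than these 4. The liver genes reached 18750 CPM in bulk_6499c4_no1, and the effect of this on comparisons with the 30, here and below, was not tested. Both bulk_7160c5 tumours exceeded every one of those 30 for 15 of 20 genes, and both bulk_7160c2 tumours for 0. For Foxp3, the other 30 ranged from 0.473 to 3.38 CPM with a median of 1.07 CPM. The no2 tumours, which gave the larger difference in T cell genes, also differed in Xist, the RNA of the inactive X chromosome. Xist was 0.434 CPM in bulk_7160c2_no2 and 230.3 CPM in bulk_7160c5_no2, and any link was not tested.

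**Figure D1:**
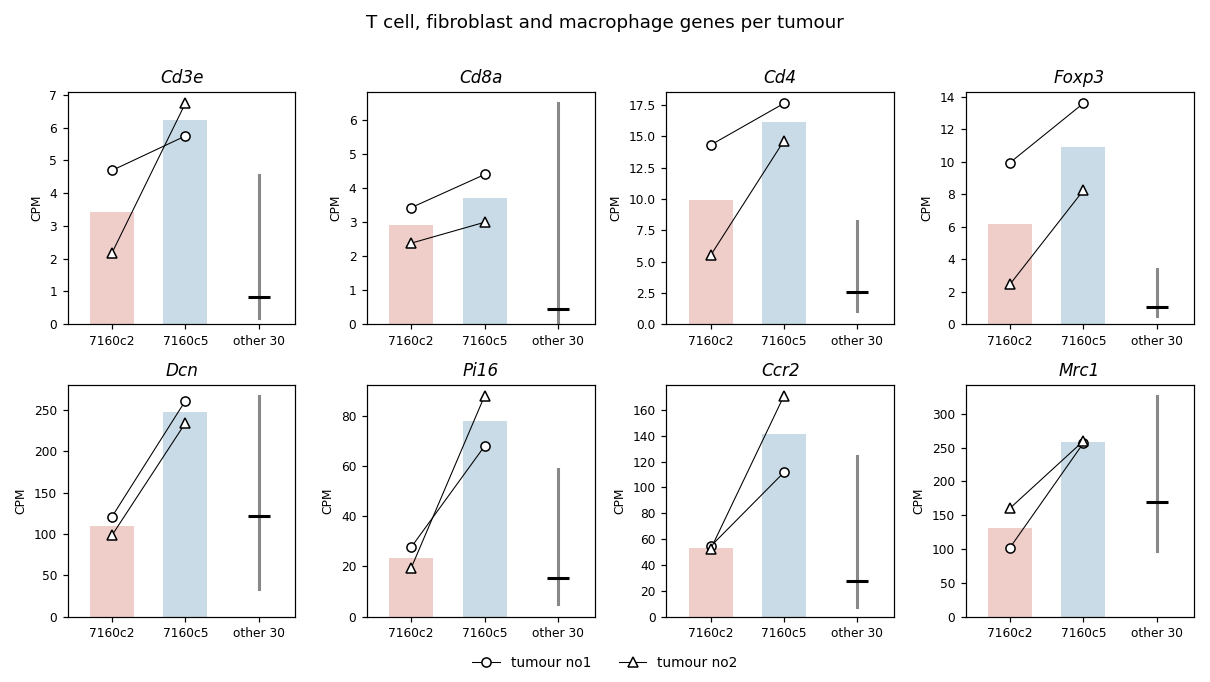
Levels in CPM (linear vertical axis from 0) of 8 T cell, fibroblast and macrophage genes in tumours no1 (circles) and no2 (triangles) of bulk_7160c2 (left) and bulk_7160c5 (middle). Bars are means of 2 tumours, lines join tumours of the same number, and the grey line at the right spans the other 30 labelled tumours with their median as a black dash. Foxp3 was 9.94 and 2.45 in bulk_7160c2, against 13.6 and 8.23 CPM in bulk_7160c5, with overlap, and Dcn was 121 and 98.1 in bulk_7160c2, against 261 and 234 CPM in bulk_7160c5, without.

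Of 12 regulatory T cell genes, 11 were negative, with a median of -0.62, 5 not overlapping (23.3% of all genes) and 5 at an unadjusted p under 0.05 (8.25% of all genes). Lrrc32, which tethers latent TGF-beta on regulatory T cells and is also made by endothelial cells, was 61.3 and 25.8 CPM in bulk_7160c2, against 79.1 and 76.8 CPM in bulk_7160c5 (log2 difference -0.93, SE 0.30, unadjusted p = 0.0286, edgeR adjusted p = 0.347), and bulk_7160c2_no2 was the low library. With each tumour left out in the order given above, the list median was -1.16, -0.08, -0.29 and -0.69. The count at an unadjusted p under 0.05 was 0 without the block (860 of 18672 genes lower) and 0 with all 34 tumours (170 of 20421). Of 12 inhibitory receptors and ligands, 10 were negative, with a median of -0.50 (-0.67, -0.42, -0.34 and -0.57 with tumours left out in that order). Cd274, which encodes the inhibitory ligand PD-L1, was 34.8 and 24.9 CPM in bulk_7160c2, against 52.6 and 47.03 CPM in bulk_7160c5 (log2 difference -0.72, SE 0.16, unadjusted p = 0.00577, edgeR adjusted p = 0.336), with no overlap. Pdcd1lg2, the other PD-1 ligand, was 9.002 and 6.78 CPM in bulk_7160c2, against 12.9 and 18.5 CPM in bulk_7160c5 (log2 difference -0.94, SE 0.28), with no overlap. Pdcd1, which encodes PD-1, was 5.24 and 3.84 CPM in bulk_7160c2, against 6.704 and 3.595 CPM in bulk_7160c5 (log2 difference -0.11, SE 0.27), and here the clones overlapped.

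Of 14 cytotoxic effector genes, 12 were negative, with a median of -0.53. At an unadjusted p under 0.05 there was 1, a share near the 8.25% of all genes, or 0 without the block. The median was -1.21, -0.15, -0.02 and -0.66 with tumours left out in that order. That gene was Ccl5, a chemokine of activated T cells, at 10.8 and 2.85 CPM in bulk_7160c2, against 16.8 and 5.58 CPM in bulk_7160c5 (log2 difference -0.76, SE 0.22). The no1 tumour was the higher in both clones. The sign turned in the fit without bulk_7160c5_no1, which had no block, though bulk_7160c2 was the lower in each pair. Gzme, a granzyme, was 44.3 and 25.6 CPM in bulk_7160c2, against 36.7 and 21.9 CPM in bulk_7160c5 (log2 difference 0.28, SE 0.14), and Gzmb, the main granzyme of killer T cells, stayed under 2 CPM in each library. Of 9 natural killer cell genes, 8 were negative, with a median of -0.51 (-0.72, -0.49, -0.24 and -0.93 in that order). At an unadjusted p under 0.05 there was 1, against 8.25% of all genes, or 0 without the block. That 1 was the receptor gene Ncr1, which stayed under 1 CPM. Of 12 T cell chemokines and receptors, 9 were negative, with a median of -0.75 that was -1.35, -0.03, -0.25 and -0.68 in that order. Of 15 B cell and plasma cell genes, 13 were negative, with a median of -0.81. At an unadjusted p under 0.05 there were 2, against 8.25% of all genes, or 0 without the block. Ighm, the heavy chain of IgM, was 26.4 and 5.95 CPM in bulk_7160c2, against 43.6 and 34.9 CPM in bulk_7160c5 (log2 difference -1.57, SE 0.45, unadjusted p = 0.0185, edgeR adjusted p = 0.339, DESeq2 adjusted p = 0.00282), and bulk_7160c2_no2 was far below the other 3 libraries. The B cell list's median was -2.35, -0.17, -0.12 and -1.17 with each tumour left out in the same order.

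Macrophage and monocyte genes were lower in bulk_7160c2 in 19 of 20 cases, with a median of -0.58. Of the 20, 15 did not overlap (23.3% of all genes) and 15 had an unadjusted p under 0.05 (8.25% of all genes). Ccr2, the receptor that brings monocytes out of the marrow (chr9:124101950-124113557, plus strand), was 54.3 and 52.01 CPM in bulk_7160c2, against 112 and 171 CPM in bulk_7160c5 (log2 difference -1.34, SE 0.20, unadjusted p = 0.00114, edgeR adjusted p = 0.325, DESeq2 adjusted p = 0.000124). The higher bulk_7160c2 tumour was below the lower bulk_7160c5 tumour, and leaving out each tumour gave log2 differences of -1.69 to -1.01. Mrc1, the mannose receptor of tissue macrophages, was 102 and 160.1 CPM in bulk_7160c2, against 256 and 259.6 CPM in bulk_7160c5 (log2 difference -0.98, SE 0.20). Csf1r, the receptor for the macrophage growth factor, was 376 and 180 CPM in bulk_7160c2, against 518 and 498 CPM in bulk_7160c5 (log2 difference -0.93, SE 0.26), with bulk_7160c2_no2 the lowest. DESeq2 called these 3 of the 20, against 1.52% of all genes. The exception in direction was Spp1, osteopontin, which tumour cells make as well, at 4657 and 5505 CPM in bulk_7160c2, against 3849 and 3941 CPM in bulk_7160c5 (log2 difference 0.41, SE 0.17). With each tumour left out in the order above, the list median was -0.69, -0.44, -0.64 and -0.55. The count at an unadjusted p under 0.05 was 9 without the block (860 of 18672 genes lower) and 0 with all 34 labelled tumours (170 of 20421). In each of these settings, 16 to 19 of 20 were negative.

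Of 12 monocyte chemokines, 9 were negative, with a median of -0.54 (-0.67, -0.36, -0.18 and -0.50 with tumours left out in that order). DESeq2 called 3 lower, against 1.52% of all genes. Cxcl12, which holds blood-forming cells in the marrow and is made by fibroblasts, was 93.4 and 39.6 CPM in bulk_7160c2, against 164 and 140 CPM in bulk_7160c5 (log2 difference -1.28, SE 0.26). Ccl8, an attractant of monocytes, was 41.9 and 15.8 CPM in bulk_7160c2, against 72.4 and 36.2 CPM in bulk_7160c5 (log2 difference -0.96, SE 0.17), with the no1 tumour higher in both clones. Ccl11, the eosinophil attractant eotaxin, was 10.3 and 6.01 CPM in bulk_7160c2, against 16.3 and 22.9 CPM in bulk_7160c5 (log2 difference -1.24, SE 0.34). Ccl2, the chief ligand of Ccr2, overlapped at 22.8 and 21.3 CPM in bulk_7160c2, against 38.01 and 18.9 CPM in bulk_7160c5 (log2 difference -0.26, SE 0.26). Ccl20, an epithelial chemokine, was higher in bulk_7160c2, at 4.54 and 3.59 CPM in bulk_7160c2, against 2.41 and 0.843 CPM in bulk_7160c5 (log2 difference 1.46, SE 0.40).

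Of 12 neutrophil chemokines and growth factors, 11 were negative, with a median of -0.63 that was -1.19, -0.09, -0.30 and -0.78 with tumours left out in that order. Il1a, an alarm cytokine, was 53.1 and 19.8 CPM in bulk_7160c2, against 96.2 and 65.1 CPM in bulk_7160c5 (log2 difference -1.25, SE 0.24, DESeq2 adjusted p = 0.00194). Cxcl1, a ligand of the neutrophil receptor Cxcr2, was 23.9 and 6.29 CPM in bulk_7160c2, against 30.1 and 9.79 CPM in bulk_7160c5 (log2 difference -0.45, SE 0.18). It was higher in the no1 tumour of both clones. Its sign turned without bulk_7160c2_no2 or without bulk_7160c5_no1, in fits without the block, though bulk_7160c2 was the lower in each pair. Csf3, the granulocyte growth factor, was 10.8 and 6.598 CPM in bulk_7160c2, against 11.7 and 11.1 CPM in bulk_7160c5 (log2 difference -0.39, SE 0.24). All 4 values lay above the highest of the other 30 tumours, at 4.12 CPM. Of 12 granulocyte genes, 12 were negative, with a median of -0.54 (-1.15, -0.41, -0.54 and -0.58 in that order) and 8 not overlapping, against 23.3% of all genes. Mmp9, a matrix protease of neutrophils and macrophages, was 132 and 97.7 CPM in bulk_7160c2, against 179.8 and 269 CPM in bulk_7160c5 (log2 difference -0.92, SE 0.26).

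Antigen presentation was described by class. MHC class II genes were lower in bulk_7160c2 in 11 of 11 cases, with a median of -0.58. Of the 11, 9 did not overlap (23.3% of all genes) and 8 had an unadjusted p under 0.05 (8.25% of all genes). H2-Ab1, a class II chain, was 482 and 621 CPM in bulk_7160c2, against 653 and 1060 CPM in bulk_7160c5 (log2 difference -0.57, SE 0.15, unadjusted p = 0.0132, edgeR adjusted p = 0.336). Leaving out each tumour in that order, the class II median was -0.58, -0.58, -0.80 and -0.31. The count at an unadjusted p under 0.05 was 1 without the block (860 of 18672 genes lower) and 0 with all 34 tumours (170 of 20421). Of 15 class I genes, 9 were negative, with a median of -0.09. This direction changed with the tumour left out, the median being 0.25, -0.43, -0.32 and 0.31 in that order, from fits without the block. Between tumours of equal number the median was -0.14 for no1 and 0.05 for no2. Nlrc5, the class I transactivator, was 26.9 and 23.2 CPM in bulk_7160c2, against 38.4 and 38.0 CPM in bulk_7160c5 (log2 difference -0.58, SE 0.15), without overlap. Of 10 genes of cross-presenting cDC1 dendritic cells, 7 were negative, with a median of -0.32 (-0.26, -0.24, -0.18 and -0.12 in that order). Of 10 genes of mature dendritic cells, 10 were negative, with a median of -0.42 (-0.49, -0.26, -0.31 and -0.39).

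Of 22 interferon response genes, 15 were positive, with a median of 0.05 that was 0.35, -0.08, -0.01 and 0.24 with tumours left out in that order. Ido1, which degrades tryptophan and restrains T cells, was 4.90 and 10.3 CPM in bulk_7160c2, against 2.21 and 2.801 CPM in bulk_7160c5 (log2 difference 1.54, SE 0.30, unadjusted p = 0.00394, edgeR adjusted p = 0.332, DESeq2 adjusted p = 0.00439). Both bulk_7160c2 tumours exceeded both of bulk_7160c5. Cxcl9, an interferon-induced attractant of T cells, was likewise without overlap at 24.0 and 40.9 CPM in bulk_7160c2, against 15.1 and 22.6 CPM in bulk_7160c5 (log2 difference 0.79, SE 0.16, unadjusted p = 0.00415, edgeR adjusted p = 0.332). Its receptor Cxcr3 was 2.08 and 1.08 CPM in bulk_7160c2, against 2.77 and 2.55 CPM in bulk_7160c5 (log2 difference -0.75, SE 0.35), so the ligand was higher and its receptor lower in bulk_7160c2.

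Fibroblast and matrix genes formed the list of the 46 in which every tested member was lower in bulk_7160c2 without overlap. Such values were found in 23.3% of all genes. There were 22 members, 21 at an unadjusted p under 0.05 (8.25% of all genes) and 10 called by DESeq2 (1.52% of all genes), with a median of -0.81 and a range from -1.70 to -0.41. Dcn, the collagen-binding proteoglycan decorin (chr10:97479609-97518143, plus strand), was 121 and 98.1 CPM in bulk_7160c2, against 261 and 234 CPM in bulk_7160c5 (log2 difference -1.15, SE 0.13, unadjusted p = 0.00032, edgeR adjusted p = 0.325, DESeq2 adjusted p = 0.000368). Its log2 difference ran from -1.28 to -0.9973 as tumours were left out. Col1a1, the main chain of type I collagen, was 5280 and 5726 CPM in bulk_7160c2, against 8620 and 13690 CPM in bulk_7160c5 (log2 difference -0.95, SE 0.22). Postn, the matrix protein periostin, was 701 and 683 CPM in bulk_7160c2, against 1359 and 1406 CPM in bulk_7160c5 (log2 difference -0.97, SE 0.14), with tumours of a clone close to each other. Lox, which crosslinks collagen and was on no list, was 165 and 188 CPM in bulk_7160c2, against 371 and 481 CPM in bulk_7160c5 (log2 difference -1.23, SE 0.13). Both tumours of bulk_7160c5 exceeded each of the other 30 tumours for 15 of the 22 genes, and both of bulk_7160c2 for 0. As tumours were left out in the order above, the median was -1.06, -0.54, -0.80 and -0.79. The count at an unadjusted p under 0.05 was 15 without the block (860 of 18672 genes lower) and 2 with all 34 tumours (170 of 20421). All 22 were negative each time.

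Adventitial fibroblasts, the cells around vessels that express Pi16, were described with 14 genes drawn up after their values were seen, so the counts test nothing. All 14 were negative, with a median of -1.26, and the medians between tumours were -1.32 for no1 and -1.46 for no2. Pi16 itself, a secreted peptidase inhibitor (chr17:29317680-29330593, plus strand), was 27.6 and 19.4 CPM in bulk_7160c2, against 67.9 and 87.96 CPM in bulk_7160c5 (log2 difference -1.70, SE 0.24, unadjusted p = 0.001, edgeR adjusted p = 0.325, DESeq2 adjusted p = 2.13e-06). Tnxb, the matrix protein tenascin-X, was 23.5 and 16.5 CPM in bulk_7160c2, against 64.1 and 73.1 CPM in bulk_7160c5 (log2 difference -1.76, SE 0.21). Clec3b, the secreted protein tetranectin, was 4.67 and 4.15 CPM in bulk_7160c2, against 13.8 and 12.3 CPM in bulk_7160c5 (log2 difference -1.53, SE 0.21). In these 3 genes the bulk_7160c5 tumours were well above those of bulk_7160c2. Igf1, the insulin-like growth factor, was 19.0 and 19.8 CPM in bulk_7160c2, against 48.6 and 44.97 CPM in bulk_7160c5 (log2 difference -1.24, SE 0.15). Fgf7, a fibroblast factor that acts on epithelium, was 2.09 and 3.41 CPM in bulk_7160c2, against 8.95 and 12.02 CPM in bulk_7160c5 (log2 difference -1.93, SE 0.24). Figf, the vessel growth factor VEGF-D, was 6.202 and 4.55 CPM in bulk_7160c2, against 19.02 and 16.5 CPM in bulk_7160c5 (log2 difference -1.70, SE 0.20). None of these overlapped.

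Vessel genes lay in the same direction. Of 11 smooth muscle and pericyte genes, 11 were negative, with a median of -0.64 and 8 at an unadjusted p under 0.05, against 8.25% of all genes. Notch3, the Notch receptor of pericytes, was 33.9 and 22.8 CPM in bulk_7160c2, against 62.3 and 43.9 CPM in bulk_7160c5 (log2 difference -0.88, SE 0.14, DESeq2 adjusted p = 0.0298). Of 12 endothelial genes, 11 were negative, with a median of -0.77, 11 not overlapping (23.3% of all genes) and 9 at an unadjusted p under 0.05 (8.25% of all genes). Esam, a junction protein, was 25.9 and 19.1 CPM in bulk_7160c2, against 34.5 and 34.5 CPM in bulk_7160c5 (log2 difference -0.60, SE 0.18). Flt1, a VEGF receptor, overlapped at 83.2 and 101.4 CPM in bulk_7160c2, against 73.3 and 117 CPM in bulk_7160c5 (log2 difference 0.02, SE 0.15). Without the block, counts at an unadjusted p under 0.05 were 3 for pericytes and 2 for endothelium (860 of 18672 genes lower). With all 34 tumours they were 0 and 1 (170 of 20421). With tumours left out in the order above, the medians were -1.07, -0.35, -0.51 and -0.75 for pericytes and -1.17, -0.35, -0.83 and -0.64 for endothelium.

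**Figure D2:**
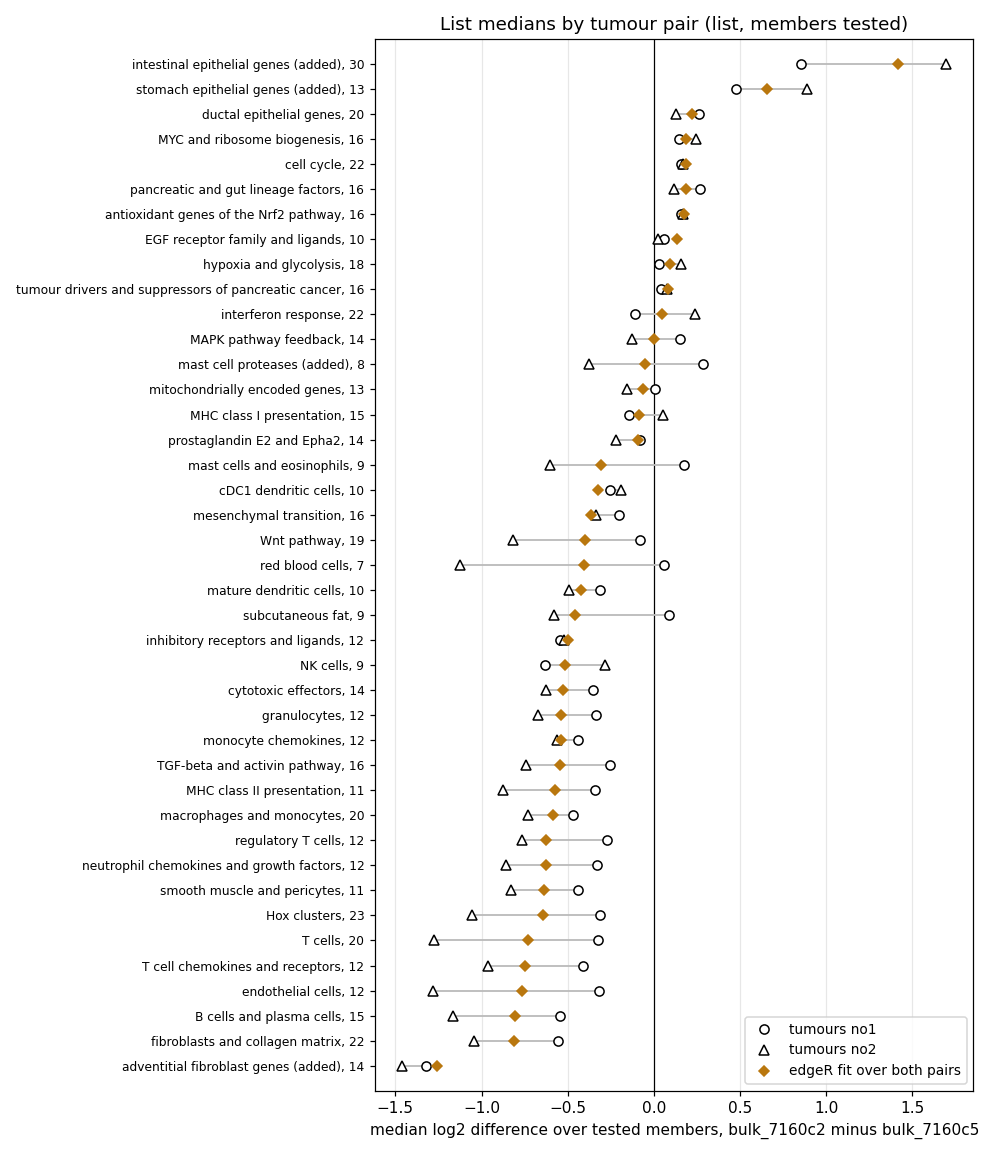
Median log2 difference (horizontal axis, bulk_7160c2 minus bulk_7160c5) over the tested members of 41 gene lists, from tumours no1 (circles), tumours no2 (triangles) and the edgeR fit over both (diamonds), with the number of members after each name. Lists of liver, heart, skeletal muscle, skin and sex-linked genes are not drawn, and the fibroblast list sits at -0.81 and the intestinal list, drawn up after values were seen, at 1.42.

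Epithelial markers gave the tumour cell side. Epcam, the epithelial adhesion marker (chr17:87635979-87651129, plus strand), was 853 and 797 CPM in bulk_7160c2, against 720.5 and 903 CPM in bulk_7160c5 (log2 difference 0.06, SE 0.16, unadjusted p = 0.715, edgeR adjusted p = 0.883). The clones overlapped, and all 4 libraries lay above the other 30 tumours, which ranged from 11.3 to 446 CPM with a median of 75.9 CPM. Krt19, the duct keratin (chr11:100140810-100148665, minus strand), was 1380 and 1462 CPM in bulk_7160c2, against 947 and 761 CPM in bulk_7160c5 (log2 difference 0.77, SE 0.17, unadjusted p = 0.00643, edgeR adjusted p = 0.336, DESeq2 adjusted p = 0.0341). Its partner Krt8 was 2330 and 2102 CPM in bulk_7160c2, against 1639 and 1184 CPM in bulk_7160c5 (log2 difference 0.70, SE 0.17), both keratins without overlap. Of 20 ductal epithelial genes, 14 were positive, against 47.8% of all genes, with a median of 0.22. In 8, both bulk_7160c2 values lay above both of bulk_7160c5, as in 15.9% of all genes, and 6 were higher at an unadjusted p under 0.05, against 4.91%. The median became 0.09, 0.39, 0.22 and 0.21 with tumours left out in that order. At that p, 4 were higher without the block (380 of 18672 genes) and 1 with all 34 tumours (166 of 20421). Grhl2, a transcription factor that maintains epithelial junctions, was the furthest in the other direction, at 2.48 and 0.805 CPM in bulk_7160c2, against 5.66 and 7.49 CPM in bulk_7160c5 (log2 difference -2.05, SE 0.54, unadjusted p = 0.0127, edgeR adjusted p = 0.336, DESeq2 adjusted p = 0.00302). These epithelial values stand beside the lower fibroblast, vessel and macrophage lists of the same tumours, and the part of the cell mix in them was not tested.

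Of the 46 lists, that of the intestine had the largest median, 1.42 over 30 tested of 32 genes. It was drawn up after values were seen, so its counts describe and test nothing. Of the 30, 28 were positive, against 47.8% of all genes. In 25, both bulk_7160c2 values lay above both of bulk_7160c5, against 15.9% of all genes. At an unadjusted p under 0.05, 24 were higher, against 4.91%, and DESeq2 called 17 higher, against 0.906%. For left-out tumours in the order above, the median was 1.672, 1.215, 1.962 and 1.038. The count at an unadjusted p under 0.05 was 20 without the block (380 of 18672 genes higher) and 5 with all 34 tumours (166 of 20421).

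Promoters of 3 of these genes are shown because the genes were higher together and belong to the intestinal programme in which the transcription factors Cdx2 and Hnf4a are known to act. The sequences are from RefSeq on GRCm38.p6, from 250 bases before to 50 bases after the annotated start, 5′ to 3′ on the gene's strand. Of the 32 intestinal genes, 25 were matched to a promoter by symbol. Capitals mark matches, on either strand, to TTTATNG, a CDX-type motif, or to CAAAGTNCA, an HNF4A-type motif.
Rbp2 (chr9:98490287-98490586, plus strand): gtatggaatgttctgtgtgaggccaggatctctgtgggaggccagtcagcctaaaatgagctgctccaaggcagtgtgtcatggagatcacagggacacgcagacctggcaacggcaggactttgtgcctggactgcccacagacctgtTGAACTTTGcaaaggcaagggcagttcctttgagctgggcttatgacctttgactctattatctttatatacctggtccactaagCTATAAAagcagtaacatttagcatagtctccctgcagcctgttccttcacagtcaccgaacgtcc
Lgals2 (chr15:78855480-78855779, minus strand): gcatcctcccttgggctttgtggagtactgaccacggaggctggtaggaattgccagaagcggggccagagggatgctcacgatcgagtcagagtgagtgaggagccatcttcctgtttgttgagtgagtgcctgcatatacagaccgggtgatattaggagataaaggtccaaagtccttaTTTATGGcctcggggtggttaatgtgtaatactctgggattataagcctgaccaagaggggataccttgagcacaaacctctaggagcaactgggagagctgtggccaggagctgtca
Fcgbp (chr7:28070986-28071285, plus strand): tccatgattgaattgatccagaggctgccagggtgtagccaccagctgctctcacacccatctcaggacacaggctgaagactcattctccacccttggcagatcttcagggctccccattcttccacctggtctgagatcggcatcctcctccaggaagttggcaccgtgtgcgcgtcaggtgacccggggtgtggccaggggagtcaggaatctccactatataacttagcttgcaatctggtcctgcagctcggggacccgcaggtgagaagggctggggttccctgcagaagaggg
The Rbp2 window held 1 match to each motif, the Lgals2 window held 1 CDX-type match, and the Fcgbp window held 0. The CDX-type motif matched 11.3% of all 27025 promoters of this length and 6 of the 25 intestinal ones (24.0%). These were Agr2, Fabp1, Fabp2, Krt20, Lgals2 and Rbp2. The HNF4A-type motif matched 1.41% of all promoters and 2 of the 25 (8.0%), Fabp2 and Rbp2. Fabp1 and Fabp2 were very low in each library, as given below. A match describes these letters only.

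Transcription factors came first among the intestinal genes. Cdx2, which sets intestinal identity (chr5:147300805-147307270, minus strand), was 18.4 and 39.4 CPM in bulk_7160c2, against 8.66 and 12.02 CPM in bulk_7160c5 (log2 difference 1.43, SE 0.22, unadjusted p = 0.00143, edgeR adjusted p = 0.325, DESeq2 adjusted p = 0.000136). Both bulk_7160c2 tumours lay above both of bulk_7160c5, and with each tumour left out the log2 difference ran from 0.87 to 1.99. Isx, a homeobox factor of the intestine that controls carotenoid uptake (chr8:74873173-74893506, plus strand), was 0.74 and 3.903 CPM in bulk_7160c2, against 0.0293 and 0.149 CPM in bulk_7160c5 (log2 difference 4.68, SE 0.45, unadjusted p = 0.000153, edgeR adjusted p = 0.325, DESeq2 adjusted p = 1.33e-06), where the bulk_7160c5 values rested on 3 and 6 counts. Hnf4a, a nuclear receptor of liver and gut, was 238 and 266 CPM in bulk_7160c2, against 156 and 136 CPM in bulk_7160c5 (log2 difference 0.82, SE 0.15, DESeq2 adjusted p = 0.0214), without overlap. On the fixed list of pancreatic and gut lineage factors, 9 of 16 were positive, with a median of 0.18 (0.22, 0.28, 0.49 and 0.18 with tumours left out in that order). Pdx1, the pancreas and duodenum factor, was 35.4 and 52.4 CPM in bulk_7160c2, against 28.2 and 31.5 CPM in bulk_7160c5 (log2 difference 0.56, SE 0.17). Foxa2, a foregut factor, was 38.6 and 35.2 CPM in bulk_7160c2, against 27.96 and 26.1 CPM in bulk_7160c5 (log2 difference 0.48, SE 0.14).

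Goblet cells secrete the mucus of the intestine, and several of their products were higher in bulk_7160c2. Tff3, a trefoil peptide (chr17:31125306-31129646, minus strand), was 67.8 and 67.7 CPM in bulk_7160c2, against 20.7 and 3.72 CPM in bulk_7160c5 (log2 difference 2.92, SE 0.64, unadjusted p = 0.00615, edgeR adjusted p = 0.336, DESeq2 adjusted p = 3.27e-09). Fcgbp, a mucus protein (chr7:28071236-28120862, plus strand), was 275 and 291 CPM in bulk_7160c2, against 114 and 56.3 CPM in bulk_7160c5 (log2 difference 1.85, SE 0.29, unadjusted p = 0.00157, edgeR adjusted p = 0.325, DESeq2 adjusted p = 1.53e-07). Clca3, a secreted goblet cell protein, was 105 and 124 CPM in bulk_7160c2, against 53.9 and 11.5 CPM in bulk_7160c5 (log2 difference 2.20, SE 0.63). In these 3 genes both bulk_7160c2 tumours exceeded both of bulk_7160c5 and each of the other 30 tumours, and bulk_7160c5_no2 was the lowest of the 4. Spdef, a factor of goblet cell maturation, was lower in bulk_7160c2, at 22.6 and 11.99 CPM in bulk_7160c2, against 27.03 and 24.99 CPM in bulk_7160c5 (log2 difference -0.62, SE 0.24). Muc2, the gel-forming mucin of the intestine, stayed under 2 CPM in each library.

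Genes of absorptive cells followed. Cdh17, the liver-intestine cadherin (chr4:11758147-11817895, plus strand), was 675 and 666 CPM in bulk_7160c2, against 385 and 351 CPM in bulk_7160c5 (log2 difference 0.90, SE 0.13, unadjusted p = 0.00122, edgeR adjusted p = 0.325, DESeq2 adjusted p = 0.0053), with tumours of a clone close together. Rbp2, which carries retinol in enterocytes (chr9:98486115-98509781, plus strand), was 19.2 and 38.1 CPM in bulk_7160c2, against 7.95 and 5.36 CPM in bulk_7160c5 (log2 difference 2.06, SE 0.41, DESeq2 adjusted p = 4.32e-06). Lgals2, a galectin of gut epithelium, was 130.3 and 229.6 CPM in bulk_7160c2, against 70.5 and 39.2 CPM in bulk_7160c5 (log2 difference 1.74, SE 0.42, DESeq2 adjusted p = 6.87e-05). In both, the no2 tumour was the higher in bulk_7160c2 and the lower in bulk_7160c5. Cdhr5, which links the microvilli of the brush border, was 54.8 and 97.2 CPM in bulk_7160c2, against 22.1 and 16.9 CPM in bulk_7160c5 (log2 difference 1.94, SE 0.33). Tmigd1, an adhesion protein of gut epithelium, was 2.91 and 19.3 CPM in bulk_7160c2, against 0.41 and 0.397 CPM in bulk_7160c5 (log2 difference 4.12, SE 0.72), mostly from bulk_7160c2_no2. Fabp1 and Fabp2, the fatty acid carriers of mature enterocytes, stayed under 1 CPM.

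**Figure D3:**
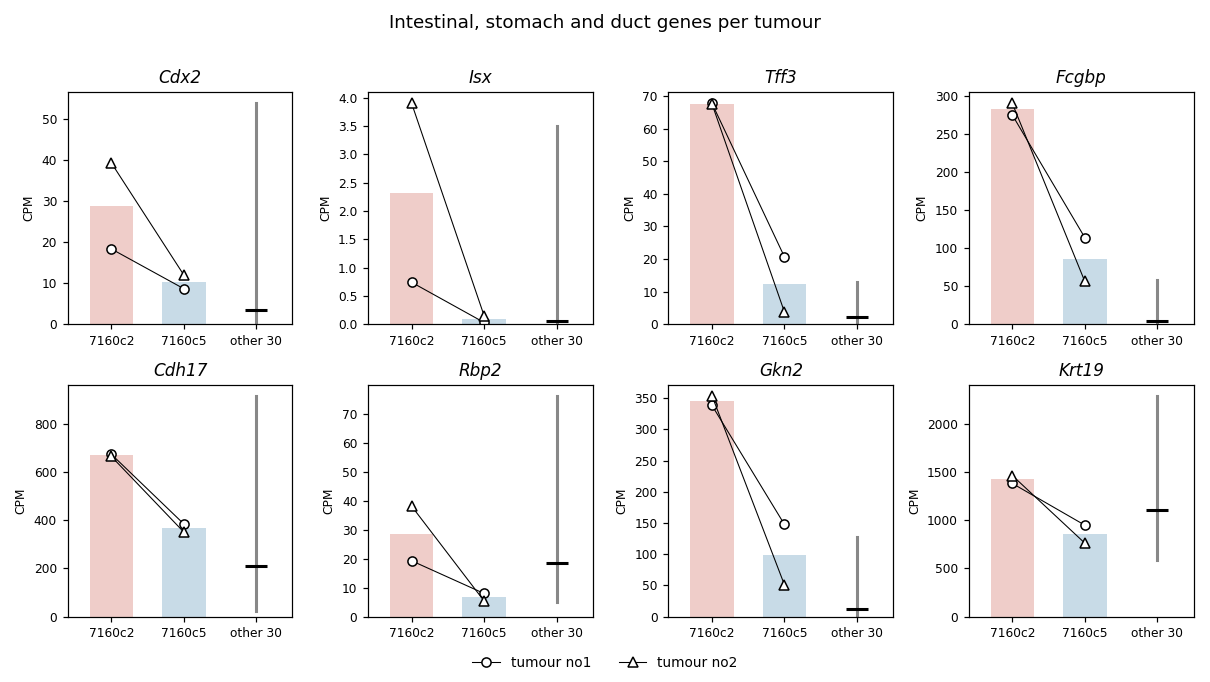
Levels in CPM (linear vertical axis from 0) of 6 intestinal genes, the stomach gene Gkn2 and the duct keratin Krt19 in tumours no1 (circles) and no2 (triangles) of bulk_7160c2 (left) and bulk_7160c5 (middle). Bars are means of 2 tumours, lines join tumours of the same number, the grey line at the right spans the other 30 labelled tumours with their median as a black dash, and every line is higher at its bulk_7160c2 end, as for Cdx2 at 18.4 and 39.4 in bulk_7160c2, against 8.66 and 12.02 CPM in bulk_7160c5.

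Stomach genes, also a list drawn up after values were seen, had 11 of 13 positive and a median of 0.66 (0.70, 0.67, 1.11 and 0.53 with tumours left out in that order). Gkn2, a gastrokine of stomach surface cells (chr6:87373357-87379497, plus strand), was 338 and 354 CPM in bulk_7160c2, against 148 and 50.8 CPM in bulk_7160c5 (log2 difference 2.03, SE 0.41, unadjusted p = 0.00459, edgeR adjusted p = 0.334, DESeq2 adjusted p = 5.8e-07). Its neighbour Gkn1, of the same cells (chr6:87345650-87350942, minus strand), was 268 and 316 CPM in bulk_7160c2, against 183 and 67.7 CPM in bulk_7160c5 (log2 difference 1.41, SE 0.42). In both genes the bulk_7160c2 tumours exceeded all of the other 30. Gkn3, a gastrokine of mucous neck cells, was lower, at 96.9 and 77.9 CPM in bulk_7160c2, against 124 and 130.3 CPM in bulk_7160c5 (log2 difference -0.51, SE 0.15). Tff1, the trefoil peptide of surface cells, was 178 and 174 CPM in bulk_7160c2, against 125 and 68.5 CPM in bulk_7160c5 (log2 difference 0.96, SE 0.24). Tff2, that of neck cells, was 310.2 and 461 CPM in bulk_7160c2, against 256 and 163 CPM in bulk_7160c5 (log2 difference 0.92, SE 0.32), higher in bulk_7160c2 without overlap.

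**Figure D4:**
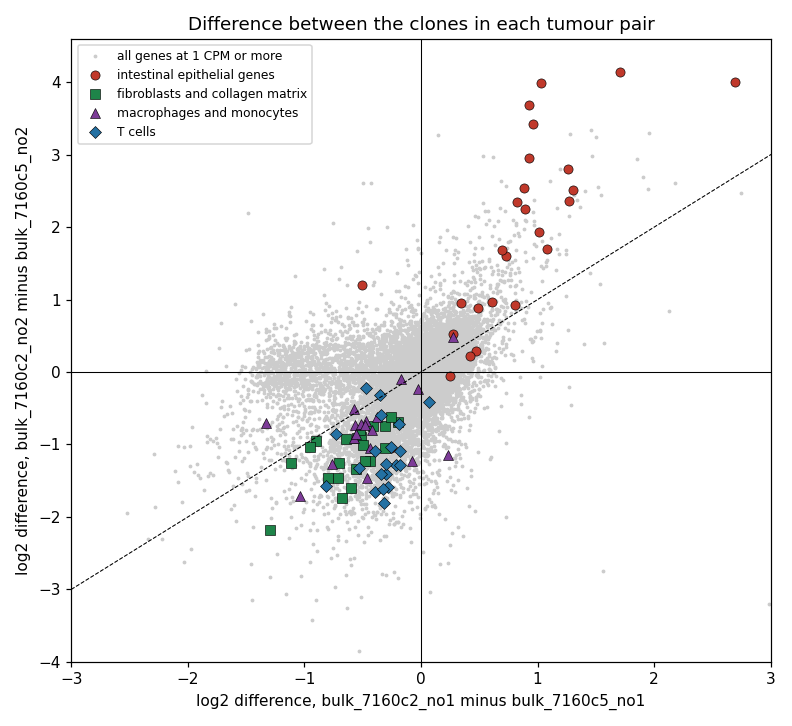
Log2 difference between the clones in tumours no2 (vertical axis) against tumours no1 (horizontal axis) for 14458 genes at a mean of 1 CPM or more (pseudocount 0.1 CPM), with members of 4 lists in colour, the line of equality dashed and 8 genes outside the axes. Intestinal genes sit mostly at the upper right, where both pairs are positive, and fibroblast genes at the lower left.

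Mast cell proteases did not share a direction. Mcpt4, a chymase of connective tissue mast cells (chr14:56059629-56062313, minus strand), had the smallest unadjusted p of all genes, at 18.03 and 72.7 CPM in bulk_7160c2, against 3.899 and 11.8 CPM in bulk_7160c5 (log2 difference 2.45, SE 0.19, unadjusted p = 5.26e-05, edgeR adjusted p = 0.325, DESeq2 adjusted p = 5.67e-16). Each bulk_7160c2 tumour exceeded both of bulk_7160c5, and with each tumour left out the log2 difference ran from 1.24 to 3.63. Mcpt2, a protease of mucosal mast cells, was 83.3 and 92.2 CPM in bulk_7160c2, against 42.6 and 21.7 CPM in bulk_7160c5 (log2 difference 1.55, SE 0.30). Mcpt1, also of mucosal mast cells, was 66.7 and 77.7 CPM in bulk_7160c2, against 43.4 and 29.6 CPM in bulk_7160c5 (log2 difference 1.03, SE 0.23), both without overlap. Cpa3, the carboxypeptidase that mast cells share, was 1.73 and 2.88 CPM in bulk_7160c2, against 1.45 and 4.88 CPM in bulk_7160c5 (log2 difference -0.22, SE 0.36). Tpsb2, a tryptase, was 3.21 and 7.34 CPM in bulk_7160c2, against 2.83 and 13.3 CPM in bulk_7160c5 (log2 difference -0.31, SE 0.32), and like Cpa3 it was higher in the no2 tumour of both clones. Kit, the receptor that mast cells need to survive, was 9.93 and 6.505 CPM in bulk_7160c2, against 10.9 and 14.7 CPM in bulk_7160c5 (log2 difference -0.61, SE 0.30), lower in bulk_7160c2. On the fixed list of mast cell and eosinophil genes, 2 of 9 were positive, with a median of -0.31 (-0.08, -0.57, -0.83 and 0.28 with tumours left out in that order), which turned positive without bulk_7160c5_no2. Mcpt genes resemble one another, and the sources used here do not say how reads that fit several genes were counted.

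**Figure D5:**
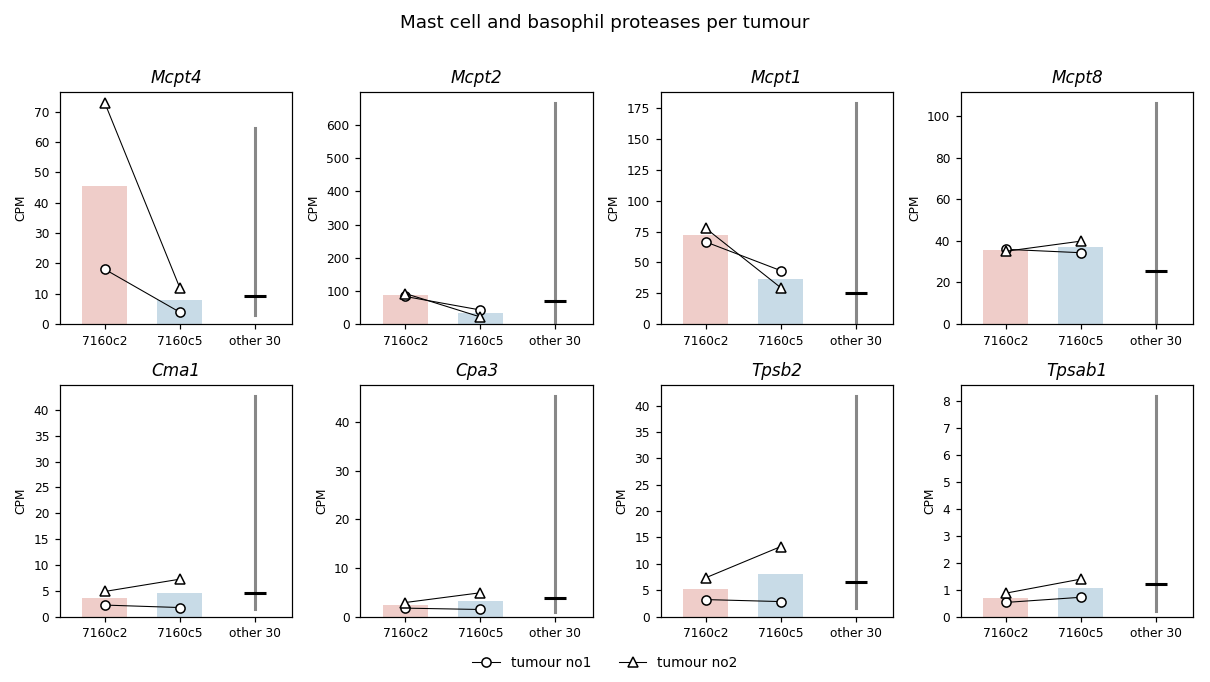
Levels in CPM (linear vertical axis from 0) of 8 proteases of mast cells and basophils in tumours no1 (circles) and no2 (triangles) of bulk_7160c2 (left) and bulk_7160c5 (middle). Bars are means of 2 tumours, lines join tumours of the same number, and the grey line at the right spans the other 30 labelled tumours with their median as a black dash. Mcpt4 was 18.03 and 72.7 in bulk_7160c2, against 3.899 and 11.8 CPM in bulk_7160c5, without overlap, and Cpa3 was 1.73 and 2.88 in bulk_7160c2, against 1.45 and 4.88 CPM in bulk_7160c5, with overlap.

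Driver genes of pancreatic cancer had 9 of 16 positive and a median of 0.08, which was 0.22, -0.03, -0.07 and 0.19 with tumours left out in that order. Trp53, which encodes p53, was 121 and 116 CPM in bulk_7160c2, against 112 and 127 CPM in bulk_7160c5 (log2 difference 0.02, SE 0.13). The clones overlapped. Myc, a growth regulator, was 96.9 and 89.9 CPM in bulk_7160c2, against 82.6 and 79.7 CPM in bulk_7160c5 (log2 difference 0.23, SE 0.13, unadjusted p = 0.129, edgeR adjusted p = 0.465), higher in bulk_7160c2 without overlap. Tgfbr1, the type I receptor of TGF-beta (chr4:47353222-47414931, plus strand), was 46.01 and 78.2 CPM in bulk_7160c2, against 105 and 139 CPM in bulk_7160c5 (log2 difference -0.98, SE 0.15, DESeq2 adjusted p = 0.00995), and DESeq2 called no other driver. Mtap, a metabolic gene beside Cdkn2a, was 168 and 211 CPM in bulk_7160c2, against 114 and 137 CPM in bulk_7160c5 (log2 difference 0.62, SE 0.13). Cdkn2a itself was 191 and 315 CPM in bulk_7160c2, against 172 and 258 CPM in bulk_7160c5 (log2 difference 0.25, SE 0.13), with overlap.

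Growth and signalling lists were read in the same way. Of 22 cell cycle genes, 16 were positive, with a median of 0.19, and 4 were higher at an unadjusted p under 0.05, against 4.91% of all genes. The median became 0.34, 0.13, 0.03 and 0.26 with tumours left out in that order. At that p, 0 were higher without the block (380 of 18672 genes) and 0 with all 34 tumours (166 of 20421). Rrm2, a subunit of the enzyme that makes DNA precursors, was 34.9 and 56.9 CPM in bulk_7160c2, against 27.1 and 34.04 CPM in bulk_7160c5 (log2 difference 0.58, SE 0.17). Of 16 genes of MYC and ribosome biogenesis, 14 were positive, with a median of 0.19 (0.31, 0.09, 0.17 and 0.24 in that order). Nop16, a nucleolar protein, was 41.8 and 59.9 CPM in bulk_7160c2, against 32.2 and 41.9 CPM in bulk_7160c5 (log2 difference 0.48, SE 0.14). Of 16 genes of the TGF-beta and activin pathway, 11 were negative, with a median of -0.55 (-0.42, -0.41, -0.66 and -0.25 in that order). Its ligand Bmp7 was 4.85 and 3.44 CPM in bulk_7160c2, against 13.2 and 11.5 CPM in bulk_7160c5 (log2 difference -1.55, SE 0.22, DESeq2 adjusted p = 0.000628). The activin subunit Inhba was 11.8 and 36.5 CPM in bulk_7160c2, against 30.6 and 64.5 CPM in bulk_7160c5 (log2 difference -1.06, SE 0.19, DESeq2 adjusted p = 0.00931), higher in the no2 tumour of both clones. Of 19 Wnt genes, 15 were negative, with a median of -0.40 (-0.81, -0.12, -0.44 and -0.28 in that order). Sfrp2, a secreted Wnt antagonist, was 78.8 and 60.96 CPM in bulk_7160c2, against 149 and 142 CPM in bulk_7160c5 (log2 difference -1.04, SE 0.14, DESeq2 adjusted p = 0.00314). The ligand Wnt10a was higher in bulk_7160c2, at 20.9 and 37.2 CPM in bulk_7160c2, against 12.5 and 13.6 CPM in bulk_7160c5 (log2 difference 1.13, SE 0.23, DESeq2 adjusted p = 0.00664).

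Of 16 genes of the mesenchymal transition, 11 were negative, with a median of -0.36 (-0.41, -0.27, -0.30 and -0.24 with tumours left out in that order). Zeb2, a repressor of epithelial genes that macrophages and fibroblasts also express, was 35.6 and 50.6 CPM in bulk_7160c2, against 108 and 114 CPM in bulk_7160c5 (log2 difference -1.35, SE 0.17, unadjusted p = 0.000502, edgeR adjusted p = 0.325, DESeq2 adjusted p = 4.77e-05). Cdh2, N-cadherin, was higher in bulk_7160c2, at 40.3 and 46.8 CPM in bulk_7160c2, against 29.7 and 20.9 CPM in bulk_7160c5 (log2 difference 0.83, SE 0.22). All 23 tested Hox genes, which encode position along the body axis, were negative, with a median of -0.65 (-0.79, -0.67, -0.99 and -0.36 in that order). Of the 23, 18 did not overlap, against 23.3% of all genes, but 1 had an unadjusted p under 0.05, against 8.25% of all genes, and DESeq2 called 0. That gene, Hoxb3, was 0.759 and 0.434 CPM in bulk_7160c2, against 1.43 and 1.98 CPM in bulk_7160c5 (log2 difference -1.42, SE 0.45), near 1 CPM. Of 16 antioxidant genes of the Nrf2 pathway, 10 were positive, with a median of 0.18 (0.25, 0.25, 0.28 and 0.24 in that order). Slc7a11, the cystine importer, was lower in bulk_7160c2, at 11.4 and 22.8 CPM in bulk_7160c2, against 26.9 and 45.5 CPM in bulk_7160c5 (log2 difference -1.08, SE 0.16, DESeq2 adjusted p = 0.00562). Gsta1, a glutathione transferase, was higher, at 30.4 and 20.4 CPM in bulk_7160c2, against 15.3 and 6.02 CPM in bulk_7160c5 (log2 difference 1.39, SE 0.25, DESeq2 adjusted p = 0.00101).

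Of 14 genes around prostaglandin E2 and Epha2, 9 were negative, with a median of -0.09 (-0.30, -0.04, -0.08 and -0.18 with tumours left out in that order). Ptgs2, which makes the precursors of prostaglandins, was 73.4 and 75.4 CPM in bulk_7160c2, against 232 and 112 CPM in bulk_7160c5 (log2 difference -1.09, SE 0.29, DESeq2 adjusted p = 0.0179), highest in bulk_7160c5_no1. Of 10 genes of the EGF receptor family, 7 were positive, with a median of 0.13 (-0.04, 0.24, 0.21 and 0.08 in that order). Of 14 MAPK feedback genes, 8 were positive. Of 18 hypoxia and glycolysis genes, 14 were positive, with a median of 0.09 (-0.05, 0.18, 0.24 and -0.05 in that order). Lists of other tissue gave medians that moved widely in the fits with a tumour left out, which had no block. Over left-out tumours they ran from -1.09 to 0.60 for subcutaneous fat (9 genes), -2.50 to 0.87 for skeletal muscle (10 genes), -0.69 to 1.04 for skin (7 genes), -10.54 to 8.39 for liver (12 genes), -5.95 to 4.88 for heart (10 genes) and -0.33 to 0.33 for mitochondrially encoded genes (13 genes). For red blood cells (7 genes) the median was -0.40 and lay near 0 without bulk_7160c2_no2. In these lists DESeq2 called 0 genes.

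Along the genome, medians of the log2 difference over genes at a mean of 5 CPM or more lay between -0.05 on the X chromosome and 0.12 on chromosome 6. Chromosome 6 was positive in both pairs of tumours, at 0.06 in no1 and 0.12 in no2. In windows of 10 Mb, medians had an SD of 0.08, and the highest 2 were neighbours on chromosome 6, between 70 and 90 Mb, at 0.23 and 0.21. The lowest window was -0.26 on the X chromosome, between 50 and 60 Mb, at -0.31 in no1 and -0.18 in no2. Next was -0.23 on chromosome 15, between 0 and 10 Mb, at -0.38 in no1 and -0.02 in no2, so it rested on the no1 tumours. Gkn1, Gkn2, Gkn3 and Cd8a lie in the chromosome 6 stretch, and Gkn3 and Cd8a had negative log2 differences. No copy number was measured here.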

How the data were processed

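The deposited table holds counts of reads per gene (39017 genes) that the authors did not normalise, judged from the values. The submitters' processing notes name STAR, featureCounts and mm10, with no version. The strand setting is unknown here, so overlapping, antisense and multigene families are uncertain. RNA was extracted with a Qiagen kit and 500 ng went into NEB libraries, per the labels' protocols.

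The 4 libraries, 32281301 to 102332697 counts deep, were tested with edgeR 4.0.16 in R 4.3.3: TMM scaling, filterByExpr by clone, tumour number as a block, Benjamini-Hochberg adjustment. On simulated counts, this fit recovered 57% of 2-fold and 100% of 4-fold changes, with 8 false calls. That simulation gave all genes a common spread and no difference by tumour number, so its recovery does not carry over to these data. CPM used total counts, unscaled. DESeq2 1.42.0 and other settings are in the closing section. With 2 tumours against 2, an exact permutation test cannot go below 0.333. The files carry 0 per-sample columns left unused.

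Members, 42 gene lists and the block were chosen with earlier results of these data known, and 4 lists after values were seen. Genes named by rule were 10 markers, then called genes with the largest differences, then the member of each list with the smallest p. As none was called, other genes were chosen after their values were seen: the largest differences and smallest p at an unadjusted p under 0.05, and members that illustrate a list. List members were matched by Ensembl identifier. Coordinates are from GENCODE M21 (GRCm38).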

Additional observations from a re-analysis of the deposited data

How the results depend on the processing

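The count of genes called, 0 with the replicate block on tumour number and 0 without it, was 394 under DESeq2 with the block, 151 under DESeq2 without it, a fit added after seeing the data, and 377 with no filter on low counts. It was 0 with each tumour left out, with all 34 tumours, with RLE size factors, with thinned counts and with a robust spread. Tumours of equal number deviated together (correlation 0.715 over 11817 genes, and 0.6555 without the liver, heart and skeletal muscle lists). There were only 2 pairs, and the labels do not say what the number marks. Genes higher at an unadjusted p under 0.05 numbered 916, against 380 without the block, 166 with all 34 tumours, 600 under DESeq2 with the block, 467 under DESeq2 without it, and 79 to 1160 with each tumour left out. Genes lower numbered 1541, against 860 without the block, 170 with all 34 tumours, 925 under DESeq2 without the block, 2315 with no filter, and 151 to 2012 with each tumour left out. The cause was not tested, but fits on 3 libraries have fewer samples and no block. No setting made 74 named genes lose a call, since none had one, and 10 of their values reversed, all on leaving out a tumour. The log2 differences then ran -0.13 to 0.26 for Epcam, -0.50 to 0.33 for Pdcd1, -1.61 to 0.61 for Cxcl1, -1.92 to 0.28 for Ccl5, -0.89 to 2.38 for Ttr and -3.71 to 0.65 for Myh4. Of 552 list medians over settings, 37 changed sign, 27 of them on leaving out a tumour. Depth limits what can be shown for low genes in the shallower no2 libraries, such as Cd27 and Hoxb3.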

Other observations

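Several further genes, chosen after their values were seen for a large difference or a small p, belong to no list. Nepn, nephrocan, a secreted protein known from the embryonic gut, was 36.3 and 39.2 CPM in bulk_7160c2, against 9.34 and 6.72 CPM in bulk_7160c5 (log2 difference 2.27, SE 0.22, DESeq2 adjusted p = 2.41e-12). Foxf2, a forkhead factor of mesenchyme, was 7.46 and 39.7 CPM in bulk_7160c2, against 2.66 and 3.84 CPM in bulk_7160c5 (log2 difference 2.45, SE 0.50), mostly from bulk_7160c2_no2. Otop1, a proton channel, was 2.41 and 9.57 CPM in bulk_7160c2, against 0.274 and 1.64 CPM in bulk_7160c5 (log2 difference 2.85, SE 0.32). Macc1, a gene linked to metastasis in human colon cancer, was 1.104 and 1.49 CPM in bulk_7160c2, against 6.01 and 7.71 CPM in bulk_7160c5 (log2 difference -2.38, SE 0.27, DESeq2 adjusted p = 3.54e-06), without overlap. Adamts5, a protease of the matrix, was 15.5 and 16.4 CPM in bulk_7160c2, against 48.2 and 61.1 CPM in bulk_7160c5 (log2 difference -1.73, SE 0.16). Il7r, the interleukin 7 receptor of lymphocytes, was 6.66 and 8.798 CPM in bulk_7160c2, against 20.01 and 24.4 CPM in bulk_7160c5 (log2 difference -1.50, SE 0.18, DESeq2 adjusted p = 7.24e-05), and both bulk_7160c5 tumours exceeded the highest of the other 30. Ptprc, which encodes CD45 of all white blood cells, was 38.5 and 98.01 CPM in bulk_7160c2, against 135 and 185 CPM in bulk_7160c5 (log2 difference -1.33, SE 0.25, DESeq2 adjusted p = 0.000564). Clec7a, a receptor of macrophages and dendritic cells, was 118 and 84.3 CPM in bulk_7160c2, against 194 and 341 CPM in bulk_7160c5 (log2 difference -1.33, SE 0.33).

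Single immunoglobulin genes were among the largest differences. Ighv1-63 was 0.237 and 5.76 CPM in bulk_7160c2, against 0.00977 and 0 CPM in bulk_7160c5, and Ighv5-4 was 2.71 and 0.217 CPM in bulk_7160c2, against 0.0293 and 0 CPM in bulk_7160c5. Ighg3, the IgG3 constant region, was 0.207 and 0.062 CPM in bulk_7160c2, against 5.34 and 0.372 CPM in bulk_7160c5. These genes share sequence with many relatives, and each difference rests mainly on 1 library. Xist, the RNA of the inactive X chromosome, was 1.93 and 0.434 CPM in bulk_7160c2, against 4.08 and 230.3 CPM in bulk_7160c5, and the Y-linked Ddx3y was 19.1 and 47.7 CPM in bulk_7160c2, against 58.1 and 24.9 CPM in bulk_7160c5. The sources used here do not give the sex of hosts or clones.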
